A study of Mus musculus with 42 samples.

Results

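The 10 genes described here encode the Toll-like receptors Tlr1, Tlr2, Tlr3, Tlr4, Tlr6, Tlr7, Tlr8, Tlr9 and Tlr13 and the LPS co-receptor Cd14, and they were taken by their Ensembl identifiers from the 37310 rows of a gene count table. The table held 42 RNA-seq libraries of bone-marrow-derived macrophages (BMDM), which are macrophages grown in culture from mouse bone marrow, here in medium conditioned by L929 fibroblasts. Libraries labelled KO came from mice in which floxed Irf5 (Irf5 flox/flox) was to be deleted by a Cre recombinase expressed from the Lyz2 gene (LysM-Cre), and libraries labelled WT came from wild-type mice. Irf5 encodes interferon regulatory factor 5, a transcription factor that acts downstream of several of these receptors. The cells were Control at 0, 2 or 24 h, or had received palmitate, a saturated fatty acid, for 2 or 24 h, or lipopolysaccharide (LPS), the outer membrane glycolipid of Gram-negative bacteria, for 2 or 24 h. What the Control cells received is not given in the labels. Both genotype labels were present in each of these 7 conditions, which gave 14 groups with 3 libraries each. The labels do not say whether the 3 libraries of a group came from separate mice or cultures, so the p-values measure the spread between libraries, which may be technical.

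Toll-like receptors are membrane proteins that bind conserved microbial molecules and pass the signal through adaptor proteins to NF-kappaB and to interferon regulatory factors. Tlr4, helped by Cd14 and the secreted protein MD-2, recognises LPS at the cell surface, while Tlr2 pairs with Tlr1 or Tlr6 to recognise bacterial lipopeptides. Tlr3, Tlr7, Tlr8, Tlr9 and Tlr13 sit in endosomes and recognise nucleic acids, namely double-stranded RNA (Tlr3), single-stranded RNA (Tlr7 and Tlr8), unmethylated CpG DNA (Tlr9) and bacterial ribosomal RNA (Tlr13). Macrophages are a main site of expression of this family, and saturated fatty acids such as palmitate have been studied as stimuli of Tlr4 signalling.

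Library totals ran from 2848793 to 7743442 counts. All 10 genes passed the filter on low counts, with which 11624 genes were kept. The members had from 14 counts (lowest library of Tlr6) to 5131 counts (highest library of Cd14), so that values of Tlr3 and Tlr6, with medians of 50.5 and 56 counts per library, carry the largest counting error. The RNA counted for the targeted gene did not follow its label. Irf5 RNA, as counts per 1000000 (CPM), was at 209.5 to 389 CPM with the WT label and at 267 to 430.5 CPM with the KO label. By contrast, Lyz2, the gene carrying the Cre, was lower with the KO label in 7 of 7 conditions. Counts per gene cannot show whether a part of Irf5 was deleted, so the deletion was not checked. The groups are therefore called by their labels, and every direction between genotypes holds for the labels alone. Macrophage marker genes (Adgre1, Csf1r, Mertk, Cd68, Itgam and Fcgr1) summed to 4580 to 8499 CPM of the library total. Of the lists for other cells, the highest sums in any library were 226 CPM for fibroblast markers (in KO palmitate 2 h), 208 CPM for granulocyte precursor markers and 134 CPM for plasmacytoid dendritic cell markers. The sums of the other lists reached 14 CPM (B cells), 7.27 CPM (conventional dendritic cells), 2.08 CPM (T or NK cells) and 0.449 CPM (erythroid cells) at most.

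The receptor genes lie apart in the mouse genome except for the pairs Tlr1 and Tlr6 and Tlr7 and Tlr8. In GRCm38, the assembly also named mm10, Tlr1 (chr5:64924679-64933563) and Tlr6 (chr5:64952031-64960097) are neighbours on the minus strand, as are Tlr7 (chrX:167304929-167330558) and Tlr8 (chrX:167242696-167264329). Tlr13 is at chrX:106143204-106160493, Tlr9 at chr9:106222598-106226883 and Tlr4 at chr4:66827584-66930284, each on the plus strand. Tlr2 is at chr3:83836272-83841767 and Tlr3 at chr8:45395665-45411080, both on the minus strand. The transcripts of Tlr1 and Tlr6 shared 259 identical stretches of 100 bases, which was 7.89% of those of Tlr1 and 7.09% of those of Tlr6, so the division of reads between this pair is uncertain. Tlr7 and Tlr8 shared 0 such stretches. Of the 10 genes, Tlr3 alone overlapped another annotated gene, the antisense gene Gm45542, over 381 exonic bases, and whether strand was used in counting is not stated.

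Promoter sequences from RefSeq (GRCm38.p6) were searched for 7 of the 10 genes. They ran from 250 bases before to 50 after the transcript start, 5′ to 3′ on the strand of the gene. Cd14 was left out of the search, and no sequences of Tlr4 and Tlr7 were at hand. The windows printed are those of 5 genes with large changes under LPS. They are Tlr2, with its highest levels at 2 h, Tlr1, Tlr3 and Tlr9, with their highest levels at 24 h, and Tlr13, which fell. Capitals mark matches, on either strand, to 4 short motifs: the interferon response core GAAANNGAA (in 8.56% of 32851 RefSeq promoters of this length), the NF-kappaB core GGANNTTCC (4.26%), the AP-1 motif TGANTCA (7.81%) and the PU.1 core GGAAGT (23.8%).
Tlr2 chr3:83841559-83841858: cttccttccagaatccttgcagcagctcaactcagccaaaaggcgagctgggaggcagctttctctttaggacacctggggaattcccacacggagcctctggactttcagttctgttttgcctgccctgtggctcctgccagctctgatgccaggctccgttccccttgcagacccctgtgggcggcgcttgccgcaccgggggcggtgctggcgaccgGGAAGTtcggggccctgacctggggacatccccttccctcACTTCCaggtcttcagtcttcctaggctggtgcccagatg
Tlr1 chr5:64933509-64933808: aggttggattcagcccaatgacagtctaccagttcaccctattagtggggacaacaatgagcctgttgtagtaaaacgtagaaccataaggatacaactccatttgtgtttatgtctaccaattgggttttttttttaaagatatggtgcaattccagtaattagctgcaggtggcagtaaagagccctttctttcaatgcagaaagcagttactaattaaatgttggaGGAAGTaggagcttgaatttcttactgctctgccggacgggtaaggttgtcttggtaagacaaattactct
Tlr3 chr8:45410331-45410630: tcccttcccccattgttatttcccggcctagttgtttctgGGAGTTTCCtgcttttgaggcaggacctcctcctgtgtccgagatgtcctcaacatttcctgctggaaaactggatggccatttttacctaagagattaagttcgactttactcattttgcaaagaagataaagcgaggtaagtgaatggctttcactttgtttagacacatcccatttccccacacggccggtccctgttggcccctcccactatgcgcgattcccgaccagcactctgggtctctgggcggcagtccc
Tlr9 chr9:106222348-106222647: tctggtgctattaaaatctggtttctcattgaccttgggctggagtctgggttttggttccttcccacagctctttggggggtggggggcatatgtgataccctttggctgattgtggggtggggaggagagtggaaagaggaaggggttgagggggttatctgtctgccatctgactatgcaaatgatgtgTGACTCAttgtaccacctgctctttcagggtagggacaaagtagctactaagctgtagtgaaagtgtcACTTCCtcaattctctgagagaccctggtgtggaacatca
Tlr13 chrX:106143025-106143324: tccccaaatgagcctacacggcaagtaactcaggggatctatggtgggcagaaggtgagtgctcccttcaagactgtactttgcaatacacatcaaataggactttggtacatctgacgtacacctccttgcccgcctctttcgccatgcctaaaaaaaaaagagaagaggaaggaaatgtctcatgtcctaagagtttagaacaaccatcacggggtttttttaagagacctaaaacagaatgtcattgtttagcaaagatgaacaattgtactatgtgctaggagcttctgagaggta
The window of Tlr2 held 2 matches to the PU.1 core, that of Tlr1 held 1 (a second RefSeq window of Tlr1, chr5:64932650-64932949, held none), that of Tlr9 held 1 beside 1 match to the AP-1 motif, and that of Tlr3 held 1 match to the NF-kappaB core. The window of Tlr13 held no match to these letters. None of the printed windows matched the interferon response core. That core had 2 matches in a window of Tlr6 (chr5:64959117-64959416) and 1 in that of Tlr8, which are not printed. A match is a description of the letters in the window, and the counts of RNA do not say whether a factor was bound there. Only these letters were searched, so a site in other letters would not be marked. The window of Tlr2, for example, holds gggaattccc in lower case, which the NF-kappaB core searched here does not match. Whether NF-kappaB binds there was not tested, so the window cannot be said to lack a site for it.

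Expression before treatment was ordered on the scale of CPM per kb of exon, on which levels of different genes can be compared. In WT Control 0 h the highest level was that of Tlr13, the sensor of bacterial ribosomal RNA, at 94.6 ± 2.19 CPM per kb (mean ± SD, n = 3, here and in the values that follow). It was followed by Cd14 at 50.9 ± 5.89, Tlr7 at 45.4 ± 1.89 and Tlr8 at 42.3 ± 0.701 CPM per kb, and the libraries of Cd14 and Tlr7 overlapped. Tlr4 (15.4 ± 0.839), Tlr2 (13.4 ± 0.669) and Tlr9 (9.99 ± 0.294) formed a middle range in CPM per kb, with no overlap between neighbours. Tlr1 (5.62 ± 0.842), Tlr6 (2.74 ± 0.382) and Tlr3 (1.73 ± 0.248) were the lowest in CPM per kb, again without overlap. The other mouse members of the family, Tlr5, Tlr11 and Tlr12, did not pass the filter on low counts.

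At 2 h the order was another, in part also without LPS. In WT Control 2 h, Cd14 at 89.2 CPM per kb overlapped Tlr13 at 89.97, and Tlr2 came next at 55.1. In WT LPS 2 h Cd14 was first at 521 ± 63.8 CPM per kb, followed by Tlr2 at 306 ± 34.7 and Tlr13 at 79.3 ± 2.51, with no overlap between them, and the same 3 genes led in KO LPS 2 h. At this time Tlr4, Tlr1 and Tlr9 overlapped as neighbours in the libraries labelled WT, at 10.2, 9.16 and 8.64 CPM per kb. By 24 h of LPS, Tlr13, Tlr8, Tlr2 and Tlr7 had come to overlap, with means between 44.1 and 48.6 CPM per kb in the libraries labelled WT, below Cd14 at 126. The widest range over the 42 libraries was that of Tlr2, whose highest level was 33.2 times its lowest, and the narrowest were those of Tlr8 (1.67 times) and Tlr4 (1.93 times).

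**Figure D1:**
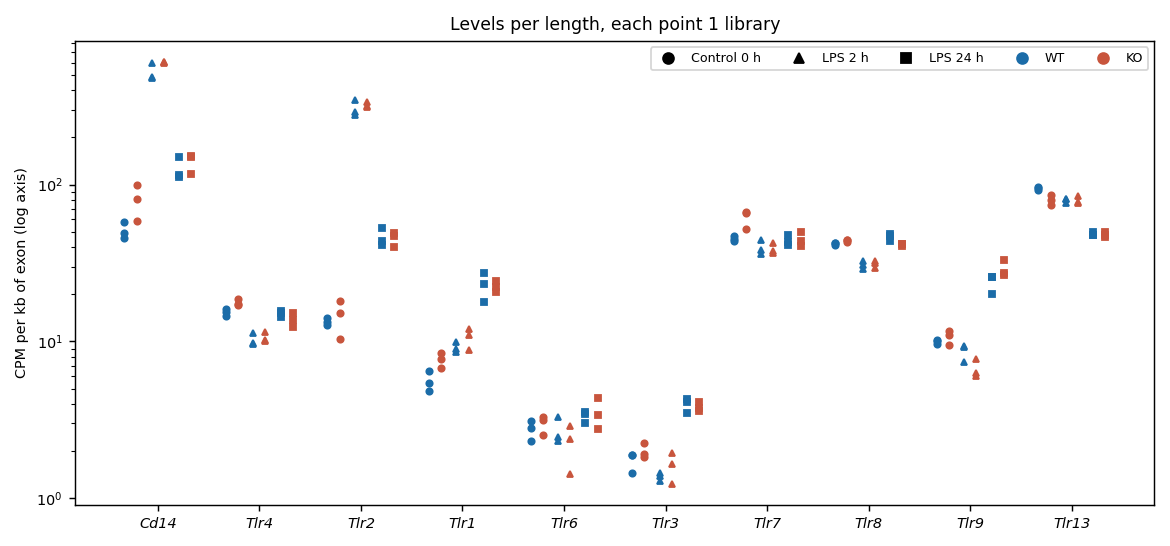
Level of each gene in CPM per kb of exon (log axis) in Control 0 h (circles), LPS 2 h (triangles) and LPS 24 h (squares), with 1 point per library, blue for WT and red for KO labels. Tlr13 was highest at WT Control 0 h (94.6 CPM per kb) and Cd14 at WT LPS 2 h (521 CPM per kb).

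LPS at each time was compared with the Control libraries of that time and label, to ask which sensors of the macrophage move when 1 of them is engaged. At 2 h, Cd14, Tlr2 and Tlr1, all of the cell surface group, were higher and the endosomal Tlr13 was lower with both labels. At 24 h, 7 of the 10 genes passed with both labels, and these included 3 endosomal receptors that were higher (Tlr3, Tlr7 and Tlr9). In the libraries labelled WT, 6 members passed at 2 h (3 higher, 3 lower), against 23.1% of all genes tested, and in those labelled KO 5 passed (3 higher, 2 lower), against 23.9%. At 24 h 7 passed with either label (6 higher and 1 lower), where 39.5% of all genes passed in WT and 40.9% in KO. The median log2 fold change of the members was -0.07 (WT) and 0.06 (KO) at 2 h and 0.92 and 0.97 at 24 h. That of all genes tested was -0.01 in each of these 4 comparisons. A change passed where the quasi-likelihood F test of edgeR gave a p under 0.05 after Benjamini-Hochberg adjustment over all genes tested. Log2 fold changes are given with the standard error (SE) of the fit.

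**Figure D2:**
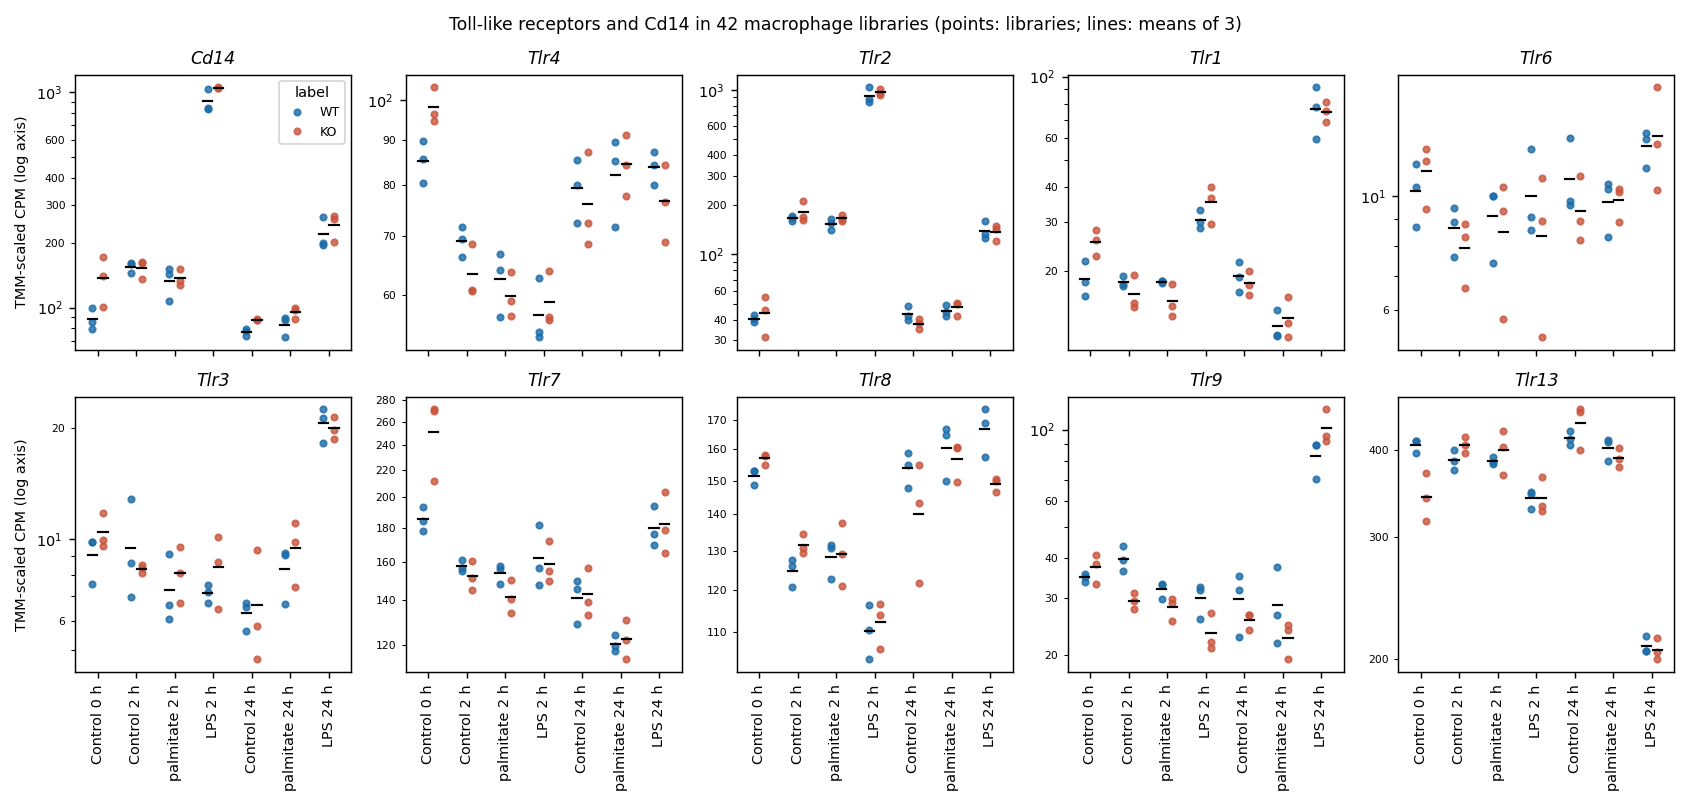
TMM-scaled CPM (log axis, a scale of its own in each panel) of the 10 genes in 7 conditions, with 1 point per library (blue for WT, red for KO labels) and a line at each mean of 3. Cd14 and Tlr2 were highest at LPS 2 h, Tlr1, Tlr3 and Tlr9 at LPS 24 h, and Tlr13 was lowest at LPS 24 h.

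Cd14 (chr18:36725067-36726798, minus strand), which binds LPS and hands it to the Tlr4 complex, rose most at 2 h. Its level in the WT libraries was 158, 160.3 and 145 CPM in Control 2 h and 834, 1029 and 842 CPM in LPS 2 h. In the KO libraries it was 162, 136 and 161 CPM and 1044, 1039.6 and 1051 CPM. Every LPS library was thus above every Control library. The fold was 5.85 in WT (log2 fold change 2.55, SE 0.12, adjusted p 6.39e-24) and 6.82 in KO (2.77, SE 0.12, adjusted p 2.47e-25). At 24 h the WT libraries had 79.4, 78.2 and 73.4 CPM in Control and 194, 261 and 199 CPM with LPS, and the KO libraries had 87.4, 87.1 and 88.6 and 264, 201 and 258 CPM. The groups did not overlap at 24 h either, and the fold was smaller, 2.84 in WT (1.51, SE 0.13, adjusted p 2.76e-14) and 2.75 in KO (1.46, SE 0.13, adjusted p 3.47e-14).

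Tlr4, the signalling receptor for LPS, moved little. In WT it had 71.6, 66.2 and 69.5 CPM in Control 2 h and 62.6, 54.5 and 53.7 CPM in LPS 2 h. These groups did not overlap, with a log2 ratio of -0.29 (SE 0.10, adjusted p 0.0245). That call was lost without WT Control 2 h library 1 or 3 or WT LPS 2 h library 2 or 3, with adjusted p up to 0.126. In KO the levels were 60.8, 60.5 and 68.5 CPM and 63.8, 56.1 and 56.7 CPM, which overlapped (-0.12, SE 0.10, adjusted p 0.453). At 24 h the groups overlapped with both labels, with log2 fold changes of 0.08 (SE 0.09, adjusted p 0.532) in WT and 0.0033 (SE 0.09, adjusted p 0.983) in KO. At 2 h in WT the co-receptor Cd14 was thus at 5.85 times and Tlr4 at 0.816 times its Control level.

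Tlr2, the shared subunit of the lipopeptide receptors, also rose at 2 h. The WT libraries held 171, 159.7 and 167 CPM in Control 2 h and 844, 1041 and 880.3 CPM in LPS 2 h, and the KO libraries 212, 161 and 169 and 1013, 960.2 and 936 CPM. No LPS library overlapped a Control library, with 5.56-fold higher levels in WT (log2 fold change 2.48, SE 0.10, adjusted p 1.76e-26) and 5.36-fold in KO (2.42, SE 0.10, adjusted p 3.3e-26). After 24 h, Tlr2 stood at 42.1, 39.8 and 48.2 CPM in WT Control and 125, 158 and 133 CPM in WT LPS, and at 40.5, 35.2 and 37.9 and 149, 120.4 and 142 CPM in KO. It remained 3.18-fold higher in WT (1.67, SE 0.12, adjusted p 4.68e-17) and 3.64-fold in KO (1.87, SE 0.12, adjusted p 1.26e-18), although its level with LPS at 24 h was below that of Control 2 h.

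Of the 2 partners of Tlr2, Tlr1 passed with LPS at both times and Tlr6 did not. Tlr1, the partner for triacylated lipopeptides, had 18, 17.7 and 19.3 CPM in WT Control 2 h and 33.3, 28.6 and 30.1 CPM in WT LPS 2 h, which is 0.73 (SE 0.15, adjusted p 0.000184) on the log2 scale. With the KO label the change was 1.08 (SE 0.15, adjusted p 1.11e-07), from 15.4, 19.3 and 14.9 to 40.2, 29.6 and 36.8 CPM. At 24 h it rose from 19.1, 21.6 and 16.9 to 91.7, 59.6 and 77.6 CPM in WT (1.99, SE 0.14, adjusted p 3.08e-17) and from 16.4, 20.05 and 17.8 to 81.1, 68.7 and 75 CPM in KO (2.04, SE 0.14, adjusted p 1.21e-17). These LPS and Control groups were apart in all 4 comparisons. Tlr6, the partner for diacylated lipopeptides, lay between 5.31 and 16.3 CPM in the 42 libraries. Its log2 fold changes with LPS were 0.22 (SE 0.22, adjusted p 0.541) at 2 h in WT and 0.13 (SE 0.23, adjusted p 0.757) at 2 h in KO. They were 0.24 (SE 0.21, adjusted p 0.39) at 24 h in WT and 0.48 (SE 0.21, adjusted p 0.0583) at 24 h in KO. None passed, and the groups overlapped each time, although the KO value at 24 h passed without KO Control 24 h library 2 or KO LPS 24 h library 2. When the counts of this paralogous pair were added and tested as 1 gene, the sum passed in the same 4 comparisons as Tlr1, with log2 fold changes from 0.58 to 1.68.

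Among the endosomal receptors, Tlr3 and Tlr9 were higher at 24 h but not at 2 h. Tlr3, the sensor of double-stranded RNA, had 5.61, 6.69 and 6.56 CPM in WT Control 24 h and 22.4, 18.2 and 21.3 CPM in WT LPS 24 h, and 4.72, 9.30 and 5.80 against 19.7, 18.7 and 21.4 CPM in KO. The groups were apart, at a log2 change of 1.69 (SE 0.21, adjusted p 2.23e-09) in WT and 1.58 (SE 0.21, adjusted p 1.06e-08) in KO. At 2 h it was -0.40 (SE 0.23, adjusted p 0.241) and 0.06 (SE 0.23, adjusted p 0.893), with overlapping groups. Tlr9, the sensor of CpG DNA, rose at 24 h from 31.7, 35 and 22.7 to 89.5, 70.3 and 89.4 CPM in WT and from 23.8, 26.6 and 26.5 to 95.4, 116 and 91.9 CPM in KO, again with no overlap. This was a 2.82-fold change in WT (1.5, SE 0.13, adjusted p 1.95e-13) and a 3.91-fold change in KO (1.97, SE 0.14, adjusted p 1.43e-17). At 2 h Tlr9 was lower, from 39.5, 43.3 and 36.5 to 31.8, 32.5 and 25.8 CPM in WT (-0.42, SE 0.15, adjusted p 0.0331), a call that was lost without WT Control 2 h library 1 or 2 or WT LPS 2 h library 3 (adjusted p up to 0.23). In KO the change at 2 h was -0.36 (SE 0.16, adjusted p 0.102).

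Tlr13 fell with LPS at both times, by 1.99-fold at 24 h in WT. Its level there was 416, 407 and 427 CPM in Control and 216, 205 and 206 CPM with LPS, and in KO it was 459, 455 and 401 and 200.1, 215 and 205 CPM, so that all LPS libraries lay below all Control libraries. On the log2 scale the change was -1.0 (SE 0.06, adjusted p 1.74e-19) in WT and -1.08 (SE 0.06, adjusted p 6.01e-21) in KO. At 2 h it was -0.18 (SE 0.06, adjusted p 0.0213) in WT and -0.26 (SE 0.06, adjusted p 0.000803) in KO, with groups apart, and the WT call was lost without WT Control 2 h library 3 or WT LPS 2 h library 2 and when every gene with a count was tested. Tlr7 and Tlr8, the sensors of single-stranded RNA, had smaller log2 changes. Tlr7 was higher at 24 h, from 149.6, 129 and 145 to 176, 194 and 169 CPM in WT (0.35, SE 0.08, adjusted p 0.0006) and from 139, 133 and 156 to 204, 179 and 165 CPM in KO (0.35, SE 0.08, adjusted p 0.000595), and did not pass at 2 h. Tlr8 was lower at 2 h in KO (-0.23, SE 0.07, adjusted p 0.0105), which was lost without KO LPS 2 h library 3, and had -0.18 (SE 0.07, adjusted p 0.0516) in WT, where DESeq2 called it. Its changes at 24 h were 0.12 (SE 0.07, adjusted p 0.166) and 0.08 (SE 0.07, adjusted p 0.353).

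Marker genes of other cells were read beside these values, since bulk RNA cannot tell fewer cells of a type from less RNA per cell. At 2 h in WT the macrophage markers summed to 4987 to 5157 CPM in Control and 4580.4 to 4634 CPM with LPS, and the 7 granulocyte precursor markers to 19.3 to 32.7 and 39.7 to 59.1 CPM. At 24 h the macrophage markers summed to 5251 to 5334 CPM in WT Control 24 h and 7855 to 8499 CPM in WT LPS 24 h, and to 5204 to 5301 and 7707 to 7938 CPM in KO. The granulocyte precursor markers summed to 53.5 to 63.7 CPM in WT Control 24 h and 29.7 to 33.7 CPM in WT LPS 24 h. In KO it was 134 to 208 and 42.2 to 63.3 CPM. The LPS 24 h libraries were thus above their Control in the macrophage list and below it in the granulocyte list. Plasmacytoid dendritic cells and B cells are the cells best known for Tlr9. Of the plasmacytoid markers, Siglech, Ccr9 and Pacsin1 reached at most 3.76, 1.98 and 2.68 CPM in any library. Tcf4 made up nearly all of the sum, which was 96.6 to 111 CPM in WT Control 24 h and 77.3 to 91.2 CPM in WT LPS 24 h. The 5 B cell markers summed to 7.81 to 13.2 and 7.17 to 7.82 CPM in the same groups. No list had a marker at 0 in every library, and the part of other cells in the changes with LPS was not tested.

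**Figure D3:**
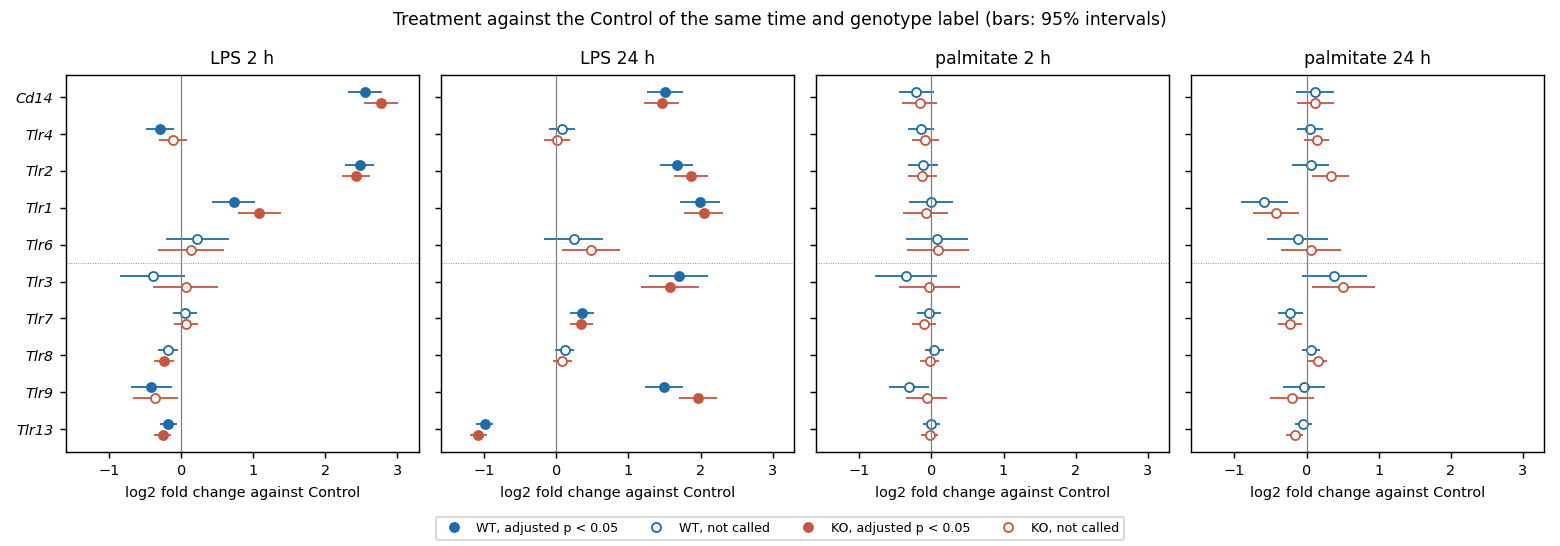
Log2 fold change of each gene against the Control of the same time and label for LPS 2 h, LPS 24 h, palmitate 2 h and palmitate 24 h (blue for WT, red for KO; bars are 95% intervals from the fit; filled points passed). With LPS, 11 of the 20 values at 2 h and 14 of 20 at 24 h passed, and with palmitate 0 of 20 passed at each time.

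The LPS effect at 24 h was then set against that at 2 h within each label, a test of the difference between 2 log2 fold changes that share no library. In WT 9 members passed (6 higher and 3 lower), against 32.6% of all genes, and in KO 7 passed (4 higher and 3 lower), against 33.4%. Cd14, Tlr2 and Tlr13 were lower on this scale with both labels. The Cd14 difference was -1.04 (SE 0.17, adjusted p 2.96e-06) in WT and -1.31 (SE 0.17, adjusted p 1.57e-08) in KO. That of Tlr2 was -0.81 (SE 0.15, adjusted p 3.62e-05) and -0.56 (SE 0.16, adjusted p 0.00415), and that of Tlr13 -0.81 (SE 0.09, adjusted p 4.07e-11) and -0.83 (SE 0.09, adjusted p 2.58e-11). Cd14 and Tlr2 were above Control at both times, so their difference is a smaller increase at 24 h, while that of Tlr13 is a larger decrease. Tlr1, Tlr3, Tlr8 and Tlr9 were higher on this scale with both labels.

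Tlr9 and Tlr3 had the largest differences in size with the WT label, and also with the KO label. For Tlr9 it was 1.91 (SE 0.20, adjusted p 3.35e-11) in WT and 2.33 (SE 0.21, adjusted p 3.62e-13) in KO, and for Tlr3 2.09 (SE 0.31, adjusted p 3.26e-07) in WT and 1.51 (SE 0.31, adjusted p 9.98e-05) in KO. Tlr1 had 1.27 (SE 0.21, adjusted p 2.21e-06) and 0.96 (SE 0.21, adjusted p 0.000238). The difference for Tlr8 was 0.30 (SE 0.10, adjusted p 0.013) and 0.31 (SE 0.10, adjusted p 0.0091), and the WT call was lost when every gene with a count was tested. Tlr4 (0.37, SE 0.13, adjusted p 0.0281) and Tlr7 (0.30, SE 0.12, adjusted p 0.0452) passed in WT. In KO they had 0.12 (SE 0.14, adjusted p 0.537) and 0.28 (SE 0.12, adjusted p 0.0672). Whether these differences depended on the label was not tested. The WT call of Tlr4 was lost without any 1 of 5 libraries (Control 2 h library 1, LPS 2 h library 2 or 3, Control 24 h library 2 or LPS 24 h library 2). That of Tlr7 was lost under RLE scaling and without any 1 of 7 libraries (the 3 of Control 2 h, LPS 2 h library 1 or 3, Control 24 h library 2 or LPS 24 h library 2), and in KO it passed without Control 2 h library 2, LPS 2 h library 3, Control 24 h library 3 or LPS 24 h library 3. Tlr6 differed by 0.02 (SE 0.31, adjusted p 0.976) and 0.35 (SE 0.31, adjusted p 0.42).

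**Figure D4:**
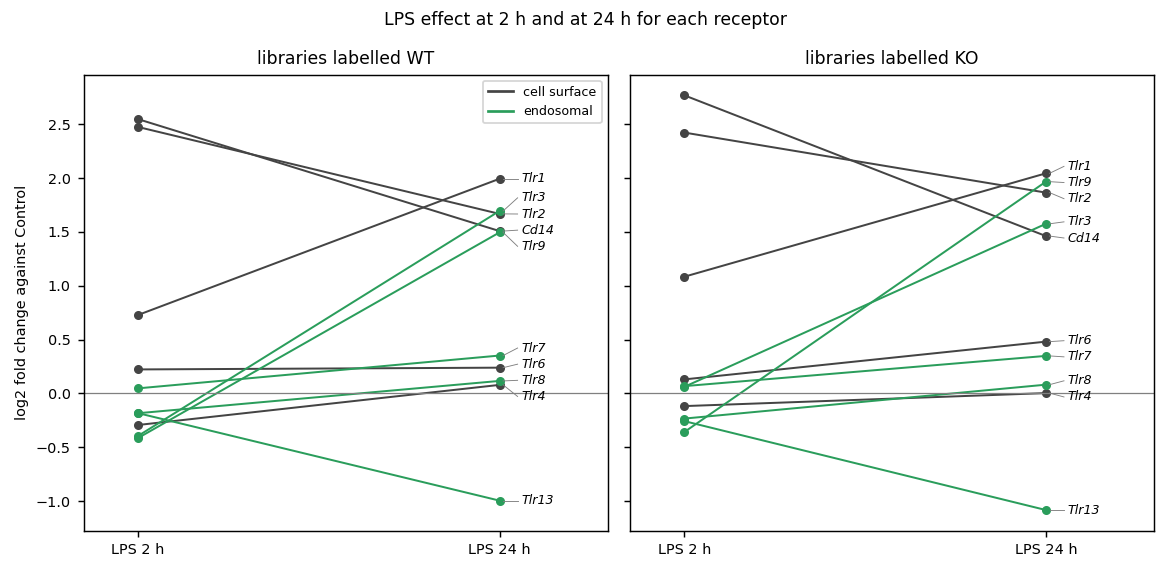
Log2 fold change against Control at LPS 2 h and LPS 24 h, with a line per gene (grey for cell surface, green for endosomal receptors) in the libraries labelled WT (left) and KO (right). The lines of Cd14 and Tlr2 go down from 2.55 and 2.48 to 1.51 and 1.67 in WT, those of Tlr3 and Tlr9 go up from -0.40 and -0.42 to 1.69 and 1.5, and that of Tlr13 ends at -1.0.

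Palmitate was compared with the same Control libraries that served for LPS, so the results with both agents at a given time and label share 3 libraries. No member passed with palmitate at 2 h, where 0.275% of all genes passed in WT and 0.112% in KO, or at 24 h, where 0.852% passed in WT and 0.877% in KO. At an unadjusted p under 0.05 there was 1 member in WT and 0 in KO at 2 h, and 2 in WT and 6 in KO at 24 h. Of the 11624 genes tested, 866, 536, 1049 and 927 were under that p in the same 4 comparisons. DESeq2 called 1 value, Tlr1 at 24 h in WT. The log2 fold changes of the 10 genes lay between -0.36 and 0.10 at 2 h and between -0.59 and 0.51 at 24 h. Their 95% intervals reached from -0.79 to 0.53 at 2 h and from -0.92 to 0.94 at 24 h. Cd14 had -0.21 (SE 0.12, adjusted p 0.724) at 2 h in WT and 0.12 (SE 0.14, adjusted p 0.872) at 24 h in WT, and Tlr4 had -0.14 (SE 0.09, adjusted p 0.762) and 0.05 (SE 0.09, adjusted p 0.935). Tlr1 had the smallest adjusted p, with 19.1, 21.6 and 16.9 CPM in WT Control 24 h and 14.5, 11.8 and 11.7 CPM in WT palmitate 24 h (-0.59, SE 0.17, adjusted p 0.078). Its palmitate libraries were below its Control libraries with either label, at -0.42 (SE 0.16, adjusted p 0.383) on the log2 scale in KO. Tlr7 had 119.5, 118 and 124 CPM in WT palmitate 24 h against 149.6, 129 and 145 CPM in WT Control 24 h (-0.23, SE 0.09, adjusted p 0.323). In KO the value was -0.23 (SE 0.09, adjusted p 0.36), and the groups were apart with both labels. Tlr2 went the other way in KO, with 42.3, 49.6 and 50.6 CPM in palmitate 24 h against 40.5, 35.2 and 37.9 CPM in Control 24 h. These groups were also apart.

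LPS and palmitate were also compared directly, as the mean over both labels. At 2 h, 5 members passed (3 higher and 2 lower with LPS), against 35% of all genes, and at 24 h 8 passed (7 higher and 1 lower), against 51.8%. At 2 h Cd14 (2.85, SE 0.09, adjusted p 1.88e-32), Tlr2 (2.57, SE 0.07, adjusted p 6.09e-34) and Tlr1 (0.95, SE 0.11, adjusted p 2.74e-10) were higher with LPS, and Tlr8 (-0.22, SE 0.05, adjusted p 0.000439) and Tlr13 (-0.21, SE 0.04, adjusted p 9.66e-05) lower. At 24 h the higher genes were Tlr1 (2.52, SE 0.10, adjusted p 5.26e-27), Tlr9 (1.85, SE 0.10, adjusted p 9.91e-23), Tlr2 (1.57, SE 0.08, adjusted p 1.46e-22) and Cd14 (1.37, SE 0.09, adjusted p 6.39e-19). So were Tlr3 (1.19, SE 0.14, adjusted p 3.15e-10), Tlr7 (0.58, SE 0.06, adjusted p 8.18e-12) and Tlr6 (0.39, SE 0.15, adjusted p 0.021), and Tlr13 was lower (-0.93, SE 0.04, adjusted p 8.42e-25). This was the one comparison in which Tlr6 passed, and the call was lost without WT palmitate 24 h library 1 or KO LPS 24 h library 1 and when every gene with a count was tested. Tlr4 did not pass at 2 h (-0.09, SE 0.07, adjusted p 0.348) or 24 h (-0.05, SE 0.06, adjusted p 0.515).

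Control cells were not constant in time. Tlr2 stood out, with 42.5, 40.3 and 38.5 CPM in WT Control 0 h, 171, 159.7 and 167 CPM at 2 h and 42.1, 39.8 and 48.2 CPM at 24 h. In KO it had 55, 31.3 and 45.7 CPM at 0 h, 212, 161 and 169 CPM at 2 h and 40.5, 35.2 and 37.9 CPM at 24 h. The 2 h libraries were above the others with both labels. As the mean of both labels the log2 change from 0 to 2 h was 2.04 (SE 0.08, adjusted p 4.88e-26), which is 4.12-fold, and at 24 h it was -0.05 (SE 0.09, adjusted p 0.794). An LPS effect at 2 h is therefore read against a Control in which Tlr2 was already raised. At 2 h against 0 h, 6 members passed as the mean of both labels (2 higher and 4 lower), against 16.7% of all genes, and 6 passed at 24 h against 0 h (1 higher and 5 lower), against 16.5%. Both comparisons use the same 0 h libraries.

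Not every time effect passed within each label. Within WT alone, 5 members passed at 2 h (14.3% of all genes) and 1, Tlr7, at 24 h (12.1%), and within KO alone 6 passed at 2 h (12.1%) and 6 at 24 h (8.17%). Tlr7 fell at 24 h with both labels, from 193, 184 and 178 CPM at 0 h to 149.6, 129 and 145 CPM in WT (-0.39, SE 0.08, adjusted p 0.000715) and from 269.9, 212 and 272 to 139, 133 and 156 CPM in KO (-0.81, SE 0.08, adjusted p 3.81e-10). Tlr4 fell at 2 h with both labels, with -0.31 (SE 0.09, adjusted p 0.0151) in WT and -0.63 (SE 0.09, adjusted p 6.87e-07) in KO. So did Tlr8, with -0.28 (SE 0.07, adjusted p 0.00176) and -0.26 (SE 0.07, adjusted p 0.00599). Cd14 was higher at 2 h in WT (0.81, SE 0.13, adjusted p 2.25e-06) and had 0.16 (SE 0.12, adjusted p 0.49) in KO. Tlr13 had -0.07 (SE 0.06, adjusted p 0.478) in WT and was higher in KO (0.25, SE 0.06, adjusted p 0.00248). The difference between labels in these time effects was tested after the values had been seen. It passed for 3 members at 2 h, against 4.77% of all genes, namely Cd14 (-0.65, SE 0.18, adjusted p 0.0202), Tlr7 (-0.49, SE 0.12, adjusted p 0.00832) and Tlr13 (0.32, SE 0.08, adjusted p 0.017), and for Tlr13 (0.32, SE 0.08, adjusted p 0.033) at 24 h, against 1.83%. At 24 h the changes that passed as the mean of both labels, other than that of Tlr7, did not pass in WT alone. The WT values were -0.20 (SE 0.13, adjusted p 0.401) for Cd14, -0.11 (SE 0.09, adjusted p 0.528) for Tlr4 and -0.50 (SE 0.23, adjusted p 0.157) for Tlr3. They were -0.24 (SE 0.14, adjusted p 0.318) for Tlr9 and 0.03 (SE 0.06, adjusted p 0.791) for Tlr13. The change of Tlr3 did not pass in KO alone either (-0.64, SE 0.22, adjusted p 0.0669). At 2 h, Tlr1 passed as the mean of both labels (-0.33, SE 0.11, adjusted p 0.0256) but not in WT alone (-0.04, SE 0.15, adjusted p 0.897), and its call was also lost without any 1 of 6 libraries (Control 0 h WT library 3 or KO library 1, or Control 2 h WT library 1 or 2 or KO library 1 or 3). The call of Tlr9 at 24 h was lost without WT Control 24 h library 3.

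The libraries labelled KO and WT were compared within each of the 7 conditions, since the receptors lie upstream of IRF5. Members passed in 1 condition, Control 0 h, where 4 of 10 did (3 higher and 1 lower with the KO label) against 12.5% of all genes. Cd14 had 99.5, 85.6 and 79.6 CPM in WT and 139.6, 101 and 172 CPM in KO (0.64, SE 0.13, adjusted p 0.000413). Tlr7 had 193, 184 and 178 CPM and 269.9, 212 and 272 CPM (0.44, SE 0.08, adjusted p 0.000173). Both were higher in every library labelled KO, as was Tlr1, with 18.3, 16.3 and 21.8 CPM in WT and 28.1, 25.9 and 22.7 CPM in KO (0.43, SE 0.15, adjusted p 0.046). Tlr13 was lower, with 413, 412 and 396 CPM in WT and 342, 371 and 317 CPM in KO (-0.25, SE 0.06, adjusted p 0.0038). The call of Tlr1 was lost without library 1 or 2 of either label, in a fit of the 6 libraries alone and when every gene with a count was tested, and when its counts were added to those of Tlr6 (log2 fold change 0.33, adjusted p 0.0661). That of Tlr13 was lost without KO library 3 (adjusted p 0.0797, the highest over its alternatives). Fibroblast markers, mainly Col1a1, summed to 0.353 to 0.607 CPM in WT Control 0 h and 27.1 to 47.1 CPM in KO Control 0 h. Granulocyte precursor markers summed to 45.9 to 53.1 and 73.6 to 83.7 CPM. Both sums were also higher with the KO label at the later Control times. Fibroblast markers had 0.385 to 38.4 CPM (WT) and 50.5 to 78.1 CPM (KO) at Control 2 h. At Control 24 h they had 2.86 to 30.5 and 30.7 to 97.9 CPM. Granulocyte precursor markers had 19.3 to 32.7 and 65.1 to 128 CPM at 2 h, and 53.5 to 63.7 and 134 to 208 CPM at 24 h. The part of these markers in the differences between labels was not tested.

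In the other 6 conditions 0 of 60 tests passed, with 5 at an unadjusted p under 0.05 and log2 fold changes from -0.44 to 0.29. Of the 11624 genes tested, 587 to 1342 were under that p in each of these conditions. The share of all genes that passed was 0.49% at Control 2 h, 0.146% at palmitate 2 h, 0.465% at LPS 2 h, 0.12% at Control 24 h, 0.0688% at palmitate 24 h and 0.146% at LPS 24 h. Tlr9 had the smallest adjusted p, at Control 2 h, with 39.5, 43.3 and 36.5 CPM in WT and 29.3, 31 and 27.7 CPM in KO (-0.44, SE 0.14, adjusted p 0.183). The groups did not overlap, and a fit of these 6 libraries alone called it (adjusted p 0.0388, the lowest over its alternatives). At LPS 24 h it had 89.5, 70.3 and 89.4 CPM in WT and 95.4, 116 and 91.9 CPM in KO (0.28, SE 0.12, adjusted p 0.457). Cd14 and Tlr4 did not pass with LPS, with 0.21 (SE 0.11, adjusted p 0.455) and 0.05 (SE 0.10, adjusted p 0.901) at 2 h and 0.15 (SE 0.12, adjusted p 0.751) and -0.13 (SE 0.09, adjusted p 0.718) at 24 h.

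The interaction of label and treatment asks whether the effect of LPS or palmitate differed between the labels. It passed for 0 of 10 members in each of the 4 interactions by the edgeR test and by DESeq2, with 1 of the 40 tests at an unadjusted p under 0.05. Of all genes, 0% passed for palmitate at 2 h, for palmitate at 24 h and for LPS at 2 h, and 0.0086% passed for LPS at 24 h. The test below 0.05 was that of Tlr9 with LPS at 24 h, where the effect in KO exceeded that in WT by 0.47 (SE 0.19, adjusted p 0.924) on the log2 scale. For Cd14 the difference between labels in the LPS effect was 0.22 (SE 0.16, adjusted p 0.817) at 2 h and -0.05 (SE 0.18, adjusted p 0.997) at 24 h. The corresponding values were, for Tlr2, -0.05 (SE 0.14, adjusted p 0.964) and 0.20 (SE 0.17, adjusted p 0.974), and for Tlr13 -0.07 (SE 0.09, adjusted p 0.895) and -0.09 (SE 0.09, adjusted p 0.979). A p above the threshold does not show that the labels responded alike.

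**Figure D5:**
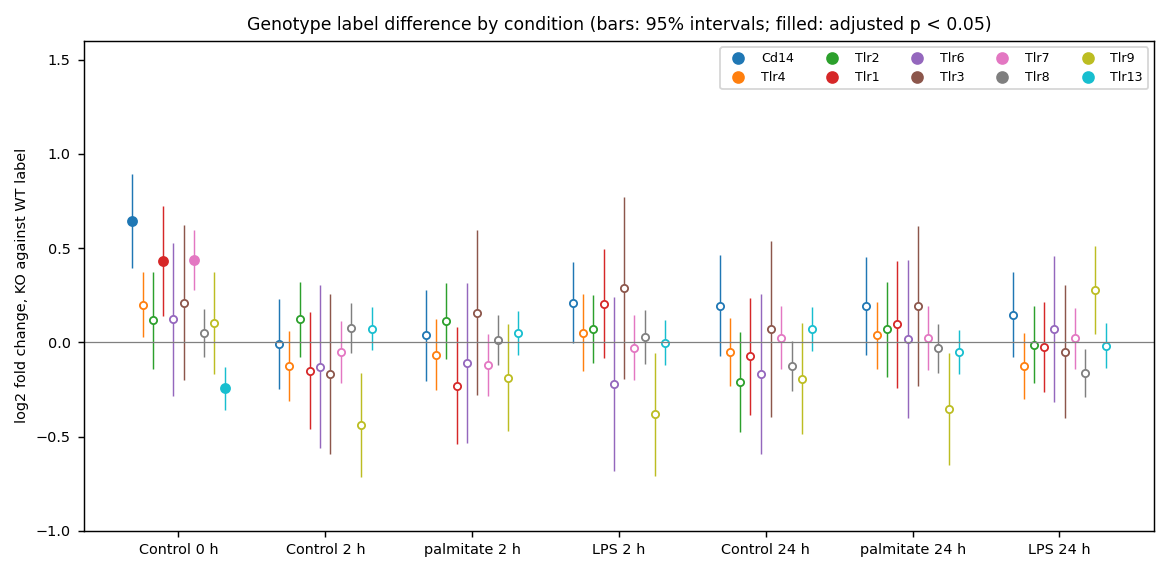
Log2 fold change between labels (KO against WT) for each gene in 7 conditions (bars are 95% intervals from the fit; filled points passed). The 4 filled points, Cd14, Tlr1 and Tlr7 above and Tlr13 below 0, are all at Control 0 h.

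The proteins that carry the receptors to their place and pass on their signal were read as lists. None of the 12 co-receptor and trafficking genes passed at LPS 2 h in WT and 1 was lower in KO, whereas at 24 h 8 were higher and 1 lower in WT and 5 higher and 1 lower in KO. The shares of all genes that passed were 23.1% (WT) and 23.9% (KO) at 2 h and 39.5% and 40.9% at 24 h, and the 6 of 12 in KO at 24 h are near the last of these. At 24 h the list had a median log2 fold change of 0.26 in WT and 0.17 in KO. Unc93b1, the chaperone that takes nucleic acid sensors to endosomes, had 0.0025 (SE 0.05, adjusted p 0.98) at 2 h and 0.67 (SE 0.05, adjusted p 6.91e-16) at 24 h in WT, and 0.65 (SE 0.05, adjusted p 1.22e-15) at 24 h in KO. Ly86, which encodes MD-1, the partner of the Tlr4 homologue Cd180, was higher at 24 h, with 0.94 (SE 0.10, adjusted p 8.62e-12) in WT and 1.09 (SE 0.10, adjusted p 1e-13) in KO. Cd36, a scavenger receptor that works with Tlr2, was lower at 24 h, with -0.90 (SE 0.08, adjusted p 5.46e-14) and -1.13 (SE 0.08, adjusted p 1.79e-17). With palmitate at 24 h 2 genes of this list were higher with each label, both named here after their values were seen. Of all genes, 0.852% passed in WT and 0.877% in KO in these comparisons (0.671% and 0.637% higher). Cd36 had 0.45 (SE 0.08, adjusted p 0.000319) in WT and 0.39 (SE 0.08, adjusted p 0.00209) in KO. The endosomal protease gene Ctsl had 0.42 (SE 0.07, adjusted p 0.000319) and 0.36 (SE 0.07, adjusted p 0.0026).

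Of the 18 adaptor and kinase genes, 12 were higher and 1 lower at LPS 2 h in WT (13 and 1 in KO), with a median log2 fold change of 0.41 (0.46 in KO), and 7 were higher and 3 lower at 24 h (8 and 2 in KO). These counts stand against the same shares of all genes, 23.1% and 23.9% at 2 h and 39.5% and 40.9% at 24 h. The members' own median was -0.07 at 2 h in WT. Myd88, the adaptor of all these receptors other than Tlr3, had 1.37 (SE 0.08, adjusted p 4.74e-19) at 2 h and 1.03 (SE 0.08, adjusted p 4.91e-15) at 24 h in WT, and 1.37 (SE 0.08, adjusted p 3.02e-19) and 1.02 (SE 0.08, adjusted p 6.55e-15) in KO. Irak2, a kinase of the Myd88 complex, had 1.23 (SE 0.07, adjusted p 1.93e-19) and 0.62 (SE 0.08, adjusted p 2.15e-08) in WT, and Ikbke, a kinase of interferon regulatory factors, 1.02 (SE 0.12, adjusted p 1e-09) and 2.16 (SE 0.12, adjusted p 8.91e-21). Of the 7 negative regulators 5 were tested, of which 3 were higher at 2 h with both labels, and 3 were higher and 1 lower at 24 h. Tnfaip3, which encodes the deubiquitinase A20, had 4.46 (SE 0.07, adjusted p 2.21e-43) at 2 h and 0.77 (SE 0.09, adjusted p 1.43e-10) at 24 h in WT. Irak3, an inhibitory kinase homologue, had 1.12 (SE 0.13, adjusted p 2.38e-10) and 2.38 (SE 0.12, adjusted p 1.66e-22), and Socs1, which restrains cytokine signalling, 3.41 (SE 0.44, adjusted p 1.22e-08) and 3.17 (SE 0.54, adjusted p 3.34e-06) on Control levels of 0 to 1.55 CPM, at which the size of a fold depends on the prior count of the fit. None of these 23 tested adaptors, kinases and regulators passed with palmitate, where 0.112% to 0.877% of all genes passed.

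The patterns over the 14 group means of log2 CPM were last compared between genes, as a description of groups that share conditions. Tlr2 and Cd14 followed each other with a Pearson r of 0.93, Tlr4 and Tlr8 with 0.90, and Tlr3 and Tlr9 with 0.90. Tlr13 ran opposite to Tlr1 (-0.94), Tlr3 (-0.92) and Tlr9 (-0.89). Among the 11393 tested genes with a symbol, those most like Tlr2 were Irak2 (0.99) and Bcl3 (0.99), and those most like Cd14 were Tnip1 (0.99) and Socs3 (0.99). For Tlr1 they were Slfn5 (0.98) and Igtp (0.98), for Tlr9 Siglec1 (0.98) and Jade2 (0.97), and for Tlr13 Nanos1 (0.99) and Gabarapl1 (0.99). The closest genes to Tlr4 were Prorsd1 (0.93) and Eya3 (0.92), to Tlr8 Pbx2 (0.94) and Exosc1 (0.94), and to Tlr7 Frmd4b (0.90) and Nudt9 (0.89). Tlr3 and Tlr6 had a mean under 10 CPM and were left out of this search.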

How the data were processed

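RNA-seq was done by the study on 42 libraries of mouse BMDM, made from total RNA after ribosomal depletion with a stranded kit for low input and sequenced as paired ends. The authors deposited raw read counts per gene in 1 table, obtained with STAR 2.7.3a on the mm10 genome, and the submitters' processing notes also name fastp 0.19.11. The annotation release used for counting and its strand setting are not given in the sources used here. All 42 columns were matched to a group by the column headers, which carry no replicate number, so libraries 1 to 3 of a group follow the column order and the numbers are names. Of the 37310 Ensembl identifiers, 32620 were paired with a symbol through GENCODE vM21 (GRCm38), and 12146 had no count in any library.

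The deposited counts were scaled by TMM and filtered with filterByExpr in edgeR 4.0.16 (R 4.3.3), which kept 11624 genes holding 99.9% of all counts. A quasi-likelihood F test was fitted with 1 mean per group over all 42 libraries, and p-values were adjusted by the Benjamini-Hochberg method over all genes tested in each of 25 comparisons. The intervals are normal 95% intervals from the SE of the fit. Levels are TMM-scaled CPM, levels per kb were divided by the exon length of the gene, and marker sums are CPM of the library total. Within groups, the 42 pairs of libraries differed by more than counting noise (chi-square per degree of freedom 1.93 to 9.32), so no library was counted as a copy of another. A count of 3 corresponded to 0.387 to 1.05 CPM, depending on the library, for counting error only.

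Alternatives were RLE size factors, every gene with at least 1 count, fits of the compared libraries alone, DESeq2 1.42.0, the threshold of an unadjusted p under 0.05 joined to a log2 change of more than 1 either way, each library left out in turn, and Tlr1 and Tlr6 summed. The members, the pathway and marker lists, the motifs and the tests were chosen with earlier results of these data known. Of the pathway lists, at most the 3 genes per list with the smallest adjusted p in the LPS comparisons are named, unless stated. Promoters came from RefSeq (GRCm38.p6).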

Additional observations from a re-analysis of the deposited data

Results flagged for a closer look

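The effect of LPS on the same gene differed between 2 h and 24 h in 16 tests of that difference, 9 with the WT and 7 with the KO label (log2 effect at 24 h minus that at 2 h, edgeR quasi-likelihood test, adjusted over all genes tested). Of all genes, 32.6% passed this test in WT and 33.4% in KO. Cd14 had -1.04 in WT and -1.31 in KO, and Tlr2 had -0.81 in WT and -0.56 in KO, so the increase of both was smaller at 24 h. Tlr13 was lowered further at 24 h, with -0.81 in WT and -0.83 in KO. Tlr9 had 1.91 in WT and 2.33 in KO, Tlr3 2.09 in WT and 1.51 in KO, Tlr1 1.27 in WT and 0.96 in KO and Tlr8 0.30 in WT and 0.31 in KO. In WT, Tlr4 had 0.37 and Tlr7 0.30.

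The change of Control cells over time differed between the labels in 4 tests, which were added after the data had been seen. Of all genes, 4.77% passed this test at 2 h and 1.83% at 24 h. From 0 to 2 h the change in KO minus that in WT was -0.65 for Cd14, -0.49 for Tlr7 and 0.32 for Tlr13. From 0 to 24 h it was 0.32 for Tlr13. These tests share the Control 0 h libraries with one another and with the comparison of the labels at Control 0 h. In KO Control 0 h the fibroblast markers summed to 27.1 to 47.1 CPM and in WT Control 0 h to 0.353 to 0.607 CPM. At Control 2 h they summed to 50.5 to 78.1 CPM in KO and 0.385 to 38.4 CPM in WT. At Control 24 h they summed to 30.7 to 97.9 CPM in KO and 2.86 to 30.5 CPM in WT. Their part in the differences between labels was not tested.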

How the results depend on the processing

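No paired analysis was possible because the columns of the count table carry no replicate numbers. Of 250 member tests (10 genes in 25 comparisons), 70 passed. Of these, 17 lost the call in at least 1 alternative, leaving aside the threshold that joins an unadjusted p to a log2 change. Calls were lost by 1 test under RLE size factors, 4 with every gene with at least 1 count, 1 in fits of the compared libraries alone, 0 with DESeq2 and 1 with Tlr1 and Tlr6 summed. Leaving out 1 library in turn, 36 results (1 test in 1 refit each) lost the call, 9 gained one and 681 were unchanged. No count of members called moved by over 1.5 times in these refits. Counts that did so in other alternatives were the following, against the main count in parentheses. With an unadjusted p under 0.05 joined to a log2 change of more than 1 either way, the count was 5 (11) for LPS 2 h, 7 (16) for the difference of LPS effects, 7 (13) for LPS against palmitate, 1 (12) for Control over time and 0 (4) for KO against WT, where the demand on size removes small changes. DESeq2 called 1 (0) for palmitate 24 h, and the cause was not tested. In Control over time, the libraries labelled WT alone, an alternative chosen after seeing the data, gave 6 (12). There the sign turned for Tlr13 at 2 h (-0.0712) and for Tlr1 at 24 h (0.0191), neither called. Of the 173 tests called in no setting, 75 changed sign in at least 1. Depth limits Tlr3 and Tlr6 most, with as few as 17 and 14 counts in a library.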

Other observations

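Control cells at 2 h also differed from those at 0 h in the signalling genes around the receptors. As the mean of both labels, 5 of the 18 adaptor and kinase genes were higher and 3 lower, and 1 of the 5 negative regulators tested was higher, where 16.7% of all genes passed. Irak2 had 0.96 (SE 0.06, adjusted p 7.42e-19) and Tnfaip3 1.42 (SE 0.06, adjusted p 3.83e-26) on the log2 scale, beside 2.04 (SE 0.08, adjusted p 4.88e-26) for Tlr2. Myd88 was lower (-0.17, SE 0.06, adjusted p 0.0481). At 24 h against 0 h, 5 of the 12 co-receptor and trafficking genes were lower and 0 higher, where 16.5% of all genes passed. Among them were Cd36 (-0.34, SE 0.05, adjusted p 5e-06), Ly86 (-0.27, SE 0.07, adjusted p 0.00458) and Unc93b1 (-0.13, SE 0.04, adjusted p 0.0101). Of the 18 adaptor and kinase genes, 2 were higher and 2 lower at 24 h, beside the same 16.5%. Of the 5 negative regulators tested, 1 was lower and 0 higher. The lower genes included Ikbke (-0.43, SE 0.09, adjusted p 0.000542) and Irak3 (-0.32, SE 0.09, adjusted p 0.0114).

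At Control 0 h the labels differed in genes of these lists. With the KO label 5 of the 12 co-receptor and trafficking genes were lower and 0 higher, where 12.5% of all genes passed and 6.06% were lower. Among them were Cd36 (-0.46, SE 0.08, adjusted p 3.9e-05) and Ly86 (-0.35, SE 0.10, adjusted p 0.0115). Of the 18 adaptor and kinase genes, 3 were higher and 1 lower, and of the 5 negative regulators tested 1 was higher. The higher genes included Myd88 (0.30, SE 0.09, adjusted p 0.0168) and Irak3 (0.50, SE 0.13, adjusted p 0.00543). In the other 6 conditions 0 of the 35 genes of these lists tested passed in this comparison by the edgeR test. The share of all genes that passed there was 0.0688% to 0.49%. On the scale of CPM per kb, Cd14 in KO Control 0 h was at 79.3 ± 20.5, overlapping Tlr13 at 79.7 ± 6.24, where in WT Control 0 h the values of this pair were apart.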
